A study of Mus musculus with 3 samples.

Results

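The 34 genes described here encode the enzymes and transporters of glycolysis, the pentose phosphate pathway and the entry of pyruvate into mitochondria. They were chosen by name, were all found among the 22457 genes of the tables, and made up between 0.542% and 0.565% of each library's counts. Polyadenylated RNA was read from primary Treg cells (regulatory T cells, the CD4 lineage that Foxp3 defines and that dampens immune responses) of a male adult mouse source aged 4 months, with no treatment, transgene or genotype named in the labels. The labels list 3 technical replicates of 1 biological replicate, here called libraries 1, 2 and 3, so there was no contrast between conditions. An SD over the libraries, or a p-value between them, covers only how these technical libraries scatter, and it says nothing of the spread between animals. Library totals ran from 2782259 to 3316275 counts. Foxp3 had 448, 447 and 407 counts in the 3 libraries, and Cd8a, which marks CD8 T cells, had 0, 0 and 1. All 7 Treg markers were detected, and they summed to between 2693 and 2848 CPM. Of other cells, 9 of 10 B cell markers (72.97 to 203 CPM in sum, lowest in library 1), 3 of 5 plasma cell markers (245 to 305), 1 of 6 NK cell markers (46.4 to 57.0), 1 of 2 CD8 markers (20.1 to 32.3) and 1 of 8 dendritic cell markers (6.33 to 24.7, with Clec9a at 0) were detected. The plasma cell sum was mostly Prdm1 (747, 628 and 390 counts) and Xbp1 (253, 246 and 205), both with the lowest CPM in library 3. Jchain (6, 14 and 68), Mzb1 (3, 12 and 15) and Sdc1 (1, 0 and 4) were highest there. The NK cell sum was mostly Gzma (179, 126 and 125), and the CD8 sum Cd8b1 (71, 62 and 89). The part of all these other cells in the levels below was not tested.

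Glycolysis splits glucose into pyruvate in the cytosol and yields ATP and NADH. Lactate dehydrogenase then returns NAD by turning pyruvate into lactate, or pyruvate dehydrogenase passes the carbon to the mitochondria. The pentose phosphate pathway branches off at glucose 6-phosphate and gives NADPH and ribose for nucleotides. Activated and dividing T cells are known to raise glycolysis, while Treg cells are known to rely more on mitochondrial oxidation, with Foxp3 reported to lower glycolytic genes. Many steps have several isoenzymes, encoded by separate genes with tissue-biased use.

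Levels were computed as counts per 1000000 counts of the library total (CPM), and levels of different genes were compared only per length. The term CPM per kb means per kilobase of coding sequence unless transcript length is named, and ratios of isoenzymes are given per base of transcript and per base of coding sequence. Of the 34 genes, 31 were detected, which means 1 CPM or more in each library, against 47.3% of all genes in the tables. The genes that missed detection were Hk3, Pgam1 and Pfkfb4. The 31 detected genes had a median of 101.5 CPM per kb, beside 31.7 for the 10542 detected coding genes of the tables, and 20 of them stood above the latter. Over all 34 genes the median was 51.4 CPM per kb. The range within the pathway was wide. Aldoa stood highest at 424 ± 22.0 CPM per kb (SD, n = 3 libraries), followed by Ldha at 382 ± 28.6, Tkt at 333 ± 33.7, Pkm at 330 ± 21.8 and Taldo1 at 323 ± 18.1. Tkt, Pkm and Taldo1 did not differ beyond their spread. At the other end, Hk3 had 0.361 ± 0.145 CPM per kb and Pgam1 0.558 ± 0.655.

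**Figure D1:**
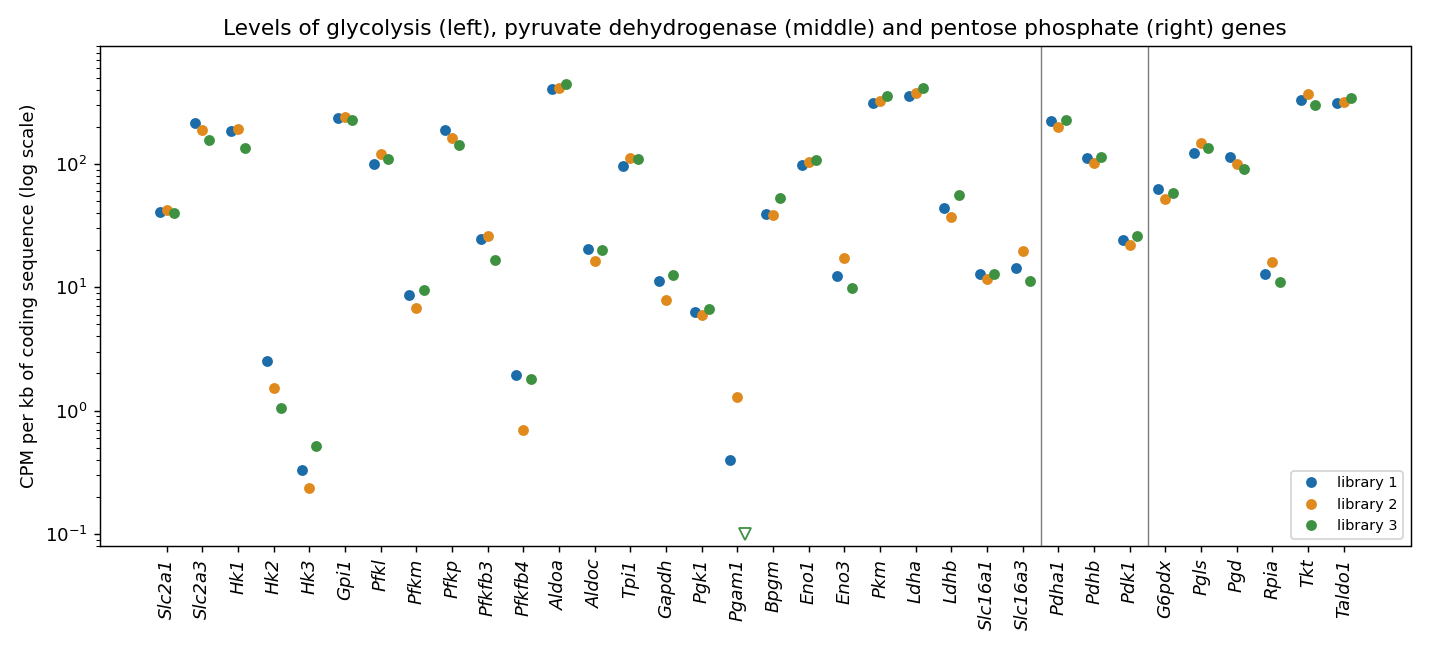
CPM per kb of coding sequence on a log axis for the 34 genes in pathway order, with 1 point for each of the 3 libraries; vertical lines separate glycolysis and lactate transport, pyruvate dehydrogenase, and pentose phosphate genes. The open triangle marks a count of 0 (Pgam1 in library 3) and is drawn at the foot of the axis. Points of 1 gene lie close together except at low counts (Pgam1, Pfkfb4, Hk2), while genes range from under 1 (Hk3, Pgam1) to above 400 (Aldoa).

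Glucose enters through the facilitative transporters of the SLC2A family. Slc2a3 (GLUT3, a high-affinity carrier of neurons and lymphocytes; chromosome 6, 122727809 to 122801640, minus strand, GRCm38) had 1049, 852 and 645 counts, or 316, 277 and 232 CPM. Slc2a1 (GLUT1, the carrier that T cell activation induces) had 199, 191 and 165 counts, or 60.01, 62.03 and 59.3 CPM. Slc2a3 was thus above Slc2a1 in every library, and Slc2a1 varied by less than Slc2a3. Slc2a1 stood at 0.265 of Slc2a3 per transcript base (exact Clopper-Pearson 95% interval 0.241 to 0.290, counting error only) and at 0.218 per coding base (0.199 to 0.2395).

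Hexokinases phosphorylate glucose and hold it in the cell. Hk1 (chromosome 10, 62268855 to 62379908, minus strand), the housekeeping form that binds the outer mitochondrial membrane, had 1730, 1688 and 1059 counts, or 522, 548 and 381 CPM. Hk2, the form that growth signals and HIF-1 induce, had 23, 13 and 8 counts, or 6.94, 4.22 and 2.88 CPM. Hk3, a form known from myeloid cells, had 3, 2 and 4 counts. Hk1 therefore made up nearly the whole hexokinase level, at 98.8% ± 0.311 per coding base, with 0.968% ± 0.330 for Hk2. Hk1 exceeded Hk2 by a factor of 146 per transcript base (interval 108 to 201) and of 98.7 per coding base (73.4 to 136). Against Hk3 the factor was 416 per transcript base (219 to 910). Hk2 over Hk3 was 2.85 (1.38 to 6.65) on the same scale. None of the coding 31-mers (all 31-base stretches) of the 3 genes occurred in transcripts of another gene. Monocyte and macrophage markers, of which 4 of 10 were detected, summed to 62.7, 149 and 61.1 CPM. Neutrophil markers, of which none of 10 was detected, summed to 0.905, 5.85 and 2.52 CPM, with Mpo and Camp at 0. The part of myeloid cells in the Hk3 counts was not tested.

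After glucose 6-phosphate isomerase (Gpi1, 235 ± 8.26 CPM per kb), phosphofructokinase makes fructose 1,6-bisphosphate, the committed step of glycolysis. Its platelet-type gene Pfkp (chromosome 13, 6579768 to 6648777, minus strand) had 446, 380 and 337 CPM, from 1478, 1170 and 938 counts. The liver-type gene Pfkl (chromosome 10, 77986947 to 78010083, minus strand) had 236, 284 and 257 CPM, from 783, 875 and 715 counts. The muscle-type gene Pfkm had 67, 49 and 62 counts, or 20.2, 15.9 and 22.3 CPM. Pfkp came first, Pfkl second and Pfkm last in each library, with shares of 57.9% ± 4.78, 39.2% ± 4.68 and 2.95% ± 0.642 of the family per coding base. Pfkl stood at 0.735 of Pfkp per transcript base (0.698 to 0.775), while over the union of all annotated exons that order turned, to 1.33. Pfkp exceeded Pfkm by a factor of 13.99 (12.03 to 16.4) and Pfkl exceeded it by 10.3 (8.83 to 12.1) per transcript base. The 3' end of Pfkp overlaps Pitrm1 on the other strand, which had 549, 374 and 412 counts, and strand use in the counting is not given in the sources used here.

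The bifunctional PFKFB enzymes set the level of fructose 2,6-bisphosphate, the strongest activator of phosphofructokinase. Pfkfb3, the form with the highest kinase activity, had 135, 133 and 77 counts, and Pfkfb4 had 9, 3 and 7. Pfkfb3 was higher by a factor of 28.6 per transcript base (18.0 to 48.1) and of 15.3 per coding base (9.68 to 25.8). Pfkfb1, which is not one of the 34, had 74, 50 and 57 counts. It stood at 13.9 ± 2.21 CPM per kb, beside 22.3 ± 5.01 for Pfkfb3.

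**Figure D2:**
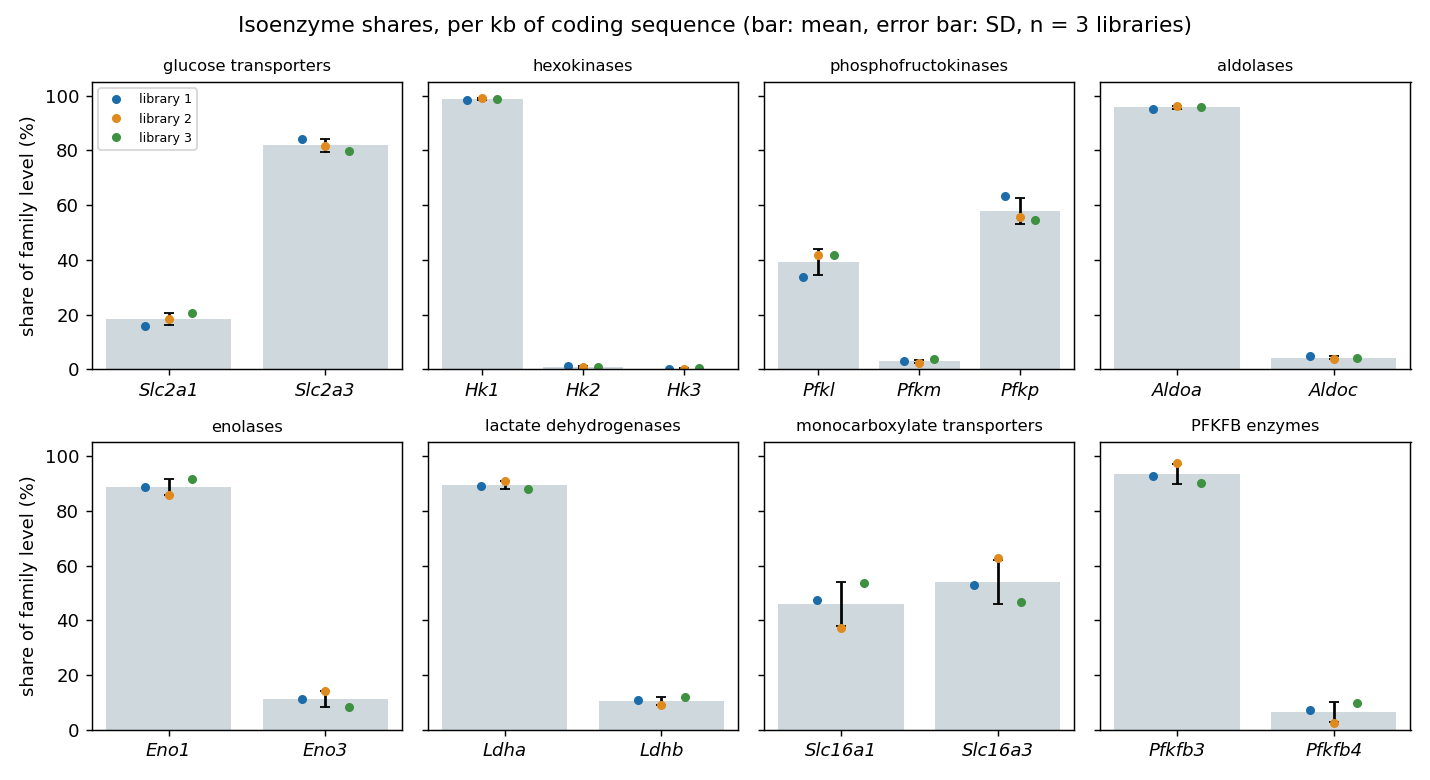
Share of each isoenzyme in its family's summed CPM per kb of coding sequence, in percent; grey bars are the mean over 3 libraries, error bars the SD and points the libraries. Families hold only isoenzymes of the main gene set, and the further isoenzymes are left out. Within these families, Hk1, Aldoa, Pfkfb3, Ldha and Eno1 hold 88.7% or more on average. Pfkp and Pfkl share theirs, and the order of Slc16a1 and Slc16a3 differs between libraries. Of the genes left out, Pfkfb1 had 13.9 CPM per kb, beside 22.3 for Pfkfb3. Eno2 had 3.98 CPM per kb, beside 103 for Eno1. The shares of Pfkfb3 and Eno1 are therefore not shares of all PFKFB enzymes or all enolases.

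Aldolase splits the sugar bisphosphate. Aldoa (chromosome 7, 126795234 to 126800751, minus strand), the form of muscle and of most other tissues, had 1695, 1605 and 1567 counts, and Aldoc, the form known from brain, had 74, 55 and 61. The factor between them was 46.1 per transcript base (39.8 to 53.5) and 22.2 per coding base (19.2 to 25.9). Eno1, the ubiquitous enolase, which makes phosphoenolpyruvate, had 422, 415 and 390 counts, against 53, 69 and 36 for the muscle form Eno3. Eno1 was higher by a factor of 5.99 per transcript base (5.07 to 7.12) and of 7.77 per coding base (6.58 to 9.22). Pkm, the pyruvate kinase of lymphocytes, had 1642, 1591 and 1567 counts. Its splice forms M1 and M2 cannot be told apart in counts per gene.

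The enzymes between aldolase and enolase catalyse consecutive steps through which the same carbon passes. Per full coding length, their levels did not resemble each other. Tpi1, triose phosphate isomerase, had 286, 308 and 274 counts, or 106 ± 8.42 CPM per kb. Gapdh (chromosome 6, 125161715 to 125166467, minus strand), which makes the NADH of glycolysis and is often used as an abundant reference gene, had only 40, 26 and 38 counts, or 10.6 ± 2.48 CPM per kb. Pgk1 (X chromosome, 106187100 to 106203699, plus strand), the first enzyme of the pathway to give ATP, had 26, 23 and 23 counts, or 6.28 ± 0.319 CPM per kb. Pgam1 (chromosome 19, 41911923 to 41918660, plus strand), phosphoglycerate mutase, had 1, 3 and 0 counts. Its muscle form Pgam2, from the list of further isoenzymes, was detected, with 16, 24 and 9 counts. At 6.96 ± 3.05 CPM per kb, Pgam2 stood above Pgam1 (0.558 ± 0.655) in each library. No interval was computed for this pair. The related Bpgm, which makes 2,3-bisphosphoglycerate and is best known from red cells, had 101, 93 and 114. Bpgm over Pgam1 was 61.6 per transcript base (23.8 to 227) and 75.5 per coding base (29.2 to 279). With only 4 Pgam1 counts in all, the ratio per transcript base was 172 without library 2 and 38.8 without library 3. Erythroid markers, of which 2 of 9 were detected, summed to 6.33, 13.97 and 31.6 CPM, with Klf1 and Epor at 0, and Bpgm was highest in library 3 as well, without passing the test between libraries (chi-square test, adjusted p = 0.121). The part of red cell RNA in the Bpgm counts was not tested.

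Gapdh, Pgk1 and Pgam1 were also the 3 genes of the pathway with the largest share of coding sequence that stands in other genes. Of their coding 31-mers, 94.3%, 100% and 100% occurred in annotated transcripts of other genes. Over the whole transcript, 98 of 1243 31-mers of Gapdh, 569 of 1795 of Pgk1 and 1010 of 1745 of Pgam1 stood in no other gene. For Tpi1 it was 1286 of 1577. Levels of single genes over those positions alone are not given here, so the contrast with Tpi1 holds per full coding length only. Gapdh shared 100 or more 31-mers with 132 other genes, of which 125 are annotated as pseudogenes. The sequences below, from GENCODE M21 transcripts, show a 60-base coding stretch of Gapdh and Pgam1, and of Eno1 for comparison. Each stretch is the one found in most other genes, and under it stands the matching stretch of a functional relative. Capitals mark bases of the relative that differ from the stretch above it.
Gapdh: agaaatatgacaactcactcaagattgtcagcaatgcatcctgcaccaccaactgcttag
Gapdhs: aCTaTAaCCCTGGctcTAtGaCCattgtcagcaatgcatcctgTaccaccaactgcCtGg
Pgam1: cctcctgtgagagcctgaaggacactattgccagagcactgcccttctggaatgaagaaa
Pgam2: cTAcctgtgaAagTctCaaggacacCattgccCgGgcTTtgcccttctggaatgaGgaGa
Eno1: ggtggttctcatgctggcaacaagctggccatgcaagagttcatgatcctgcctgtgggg
Eno3: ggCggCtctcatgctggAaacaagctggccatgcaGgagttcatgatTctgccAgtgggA
The Gapdh stretch (chr6:125162896-125162955, minus strand, GRCm38) stands letter for letter in transcripts of 69 other genes, while the testis enzyme Gapdhs differs from it at 18 bases. The Pgam1 stretch (chr19:41916680-41916739, plus strand) stands in 2 other genes and differs from the muscle form Pgam2 at 12. For Eno1 (chr4:150245133-150245192, plus strand) the stretch stands in 5 other genes and differs from Eno3 at 7 bases. None of the 14 pairs compared here, among them Eno1 with Eno3 and Ldha with Ldhb, shared a 31-mer. In these pairs the sequence common to a gene and its pseudogenes was thus not common to the other gene of the pair. Gapdh with Gapdhs and Pgam1 with Pgam2 were not among the pairs.

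Copies that have a row of their own in the tables held few counts. Eno1b, an annotated retrogene that shares 1509 31-mers with Eno1, had 4, 2 and 1 counts, and Pgk1-rs7, which shares 1225 with Pgk1, had none. The share of common sequence did not go with a low level throughout: Eno1, with 89.5% of its coding 31-mers shared, had 103 ± 4.98 CPM per kb, and Pkm, with 78.1% shared, had 330 ± 21.8. In Pkm, Ldha, Gpi1 and Aldoa, between 41.4% and 78.1% of coding 31-mers were shared, and all 4 stood between 235 and 424 CPM per kb, so the values of these genes are uncertain too. How reads with several matches were counted is not given in the sources used here, reads may be longer than 31 bases, and the part of shared sequence in the levels of Gapdh, Pgk1 and Pgam1 was not tested.

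**Figure D3:**
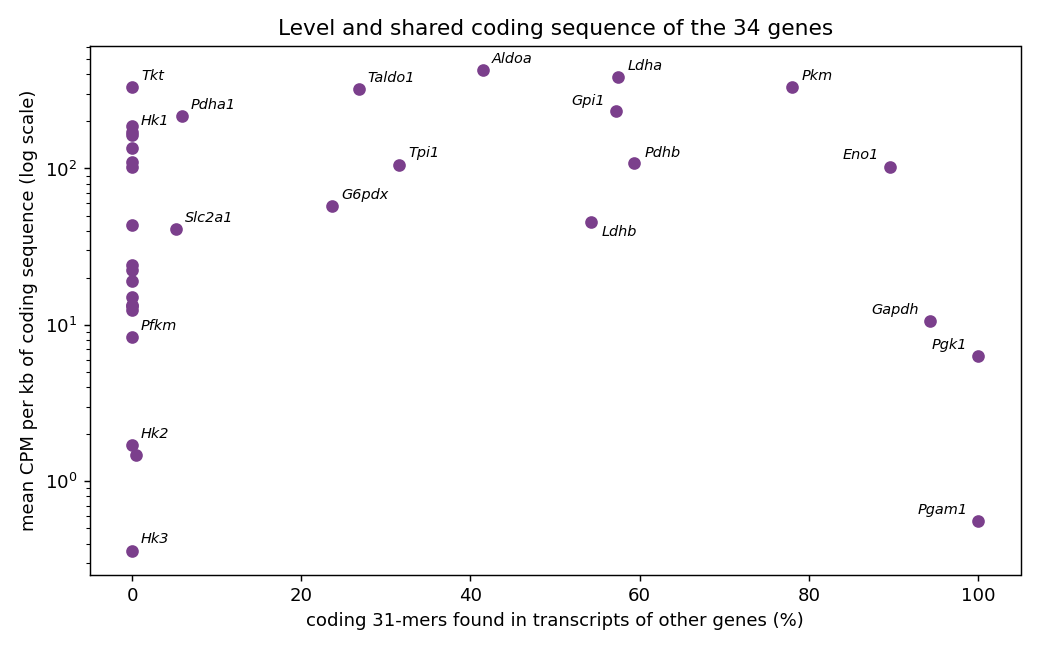
Mean CPM per kb of coding sequence (log axis) against the percentage of coding 31-mers that stand in transcripts of other genes, 1 point per gene. Pgam1 and Pgk1, at 100%, and Gapdh, at 94.3%, lie below Eno1, at 89.5%, and Pkm, at 78.1%; low levels such as those of Hk2 and Hk3 also occur where no sequence is shared.

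Lactate dehydrogenase is built from muscle-type (Ldha) and heart-type (Ldhb) subunits, of which the first is linked to lactate production. Ldha (chromosome 7, 46841475 to 46855627, plus strand) had 1287, 1247 and 1247 counts, or 388, 405 and 448 CPM, and Ldhb had 145, 114 and 156 counts, or 43.7, 37.0 and 56.1 CPM. Ldha made up 89.4% ± 1.48 of the pair per coding base and was higher by a factor of 6.55 per transcript base (5.91 to 7.26) and of 8.43 per coding base (7.61 to 9.35). Both genes share more than 50% of their coding 31-mers with pseudogenes (57.5% for Ldha and 54.2% for Ldhb).

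Lactate crosses the plasma membrane through monocarboxylate carriers. Slc16a1 (MCT1) had 63, 53 and 53 counts and Slc16a3 (MCT4, the carrier linked to lactate export in glycolytic cells) had 67, 85 and 44. Their order differed between libraries, and Slc16a1 over Slc16a3 was 0.845 per transcript base with an interval of 0.683 to 1.04, so no difference between them was detectable at this depth. Without library 2 the ratio was 1.02.

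Among genes of the pentose phosphate pathway, the sugar-exchanging enzymes Tkt and Taldo1 stood higher than the oxidative enzymes G6pdx, Pgls and Pgd in every library. G6pdx, the NADPH-making entry enzyme, had 319, 246 and 249 counts, or 57.3 ± 5.30 CPM per kb. The lactonase gene Pgls had 135 ± 12.1 and Pgd, the second NADPH-making enzyme, had 102 ± 11.6 CPM per kb. Rpia, which makes ribose 5-phosphate, was the lowest at 13.4 ± 2.53 CPM per kb, from 39, 45 and 28 counts. Transketolase (Tkt; chromosome 14, 30548359 to 30574720, plus strand) had 2034, 2119 and 1566 counts, the most of the 34 genes in libraries 1 and 2, and transaldolase (Taldo1; chromosome 7, 141392199 to 141402968, plus strand) had 1178, 1116 and 1097. These enzymes, which link the pathway back to glycolysis, stood at 333 ± 33.7 and 323 ± 18.1 CPM per kb. Rpe, the epimerase of the same branch and not one of the 34, had 122 ± 10.4, and 17.9% of its exonic bases overlap Kansl1l. In the same list of 6 further genes, of which 4 were detected, Rbks, a ribokinase, had 28.9 ± 4.89 CPM per kb. Tigar, a phosphatase that lowers fructose 2,6-bisphosphate, had 77, 48 and 25 counts.

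Pyruvate dehydrogenase turns pyruvate into acetyl-CoA. The genes of its E1 alpha and beta subunits, Pdha1 and Pdhb, had 864, 724 and 736 and 399, 341 and 339 counts. Pdha1 over Pdhb was 1.14 per transcript base (1.06 to 1.23) and 1.98 per coding base (1.84 to 2.13), and 0.831 over the positions whose 31-mers stand in no other gene, so their order depends on the length used. The 3' end of Pdha1 overlaps Map3k15 on the other strand, which had 309, 235 and 259 counts, and 59.3% of the coding 31-mers of Pdhb stand in a pseudogene. Pdk1, a kinase that turns the complex off and a known HIF-1 target, had 24.0 ± 2.00 CPM per kb. In the wider set of 12 genes for pyruvate entry and its control, 10 were detected. Within it, Pdk3 stood above Pdk1 at 73.0 ± 3.36 CPM per kb, Pdk2 had 7.96 ± 0.547, and Pdk4 had 1, 0 and 0 counts; the last 2 kinases were named after their values were seen. The highest of that set were the pyruvate carrier subunit Mpc2 at 191 ± 7.09 and Dld, the E3 subunit, at 159 ± 4.93 CPM per kb, and the testis form Pdha2 had no count.

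Other isoenzymes of the pathway had low levels or missed detection. Of 23 further isoenzymes and transporters, 9 were detected, and the highest by transcript length were Pfkfb1 at 10.5 ± 1.67, the ADP-dependent glucokinase gene Adpgk at 7.68 ± 2.39 and the transporter gene Slc2a8 at 6.47 ± 1.36 CPM per kb of transcript. By coding length, Slc2a9 (11.3 ± 3.87 CPM per kb) came before Slc2a8 (9.53 ± 2.003), within their spread. Slc2a4 (GLUT4, the insulin-regulated carrier), Slc2a5 (the fructose carrier), Hkdc1, Pklr (the liver and red cell pyruvate kinase), Slc16a8 and Tktl2 had 0 counts in all 3 libraries, where 3 counts correspond to 0.905, 0.974 and 1.08 CPM as upper limits. Of the genes that run the pathway backwards, Fbp1, Fbp2, Pck1 and G6pc had no count. Related forms were detected, and were named after their values were seen: Pck2, the mitochondrial form of Pck1, had 490, 482 and 365 counts (72.5 ± 6.43 CPM per kb of coding sequence), and G6pc3, the broadly expressed form of G6pc, had 116, 118 and 139 counts (39.6 ± 7.58). Of 11 genes for gluconeogenesis and glycogen, 9 were detected, led by Ugp2, which makes UDP-glucose, at 61.5 ± 2.69, the glycogen phosphorylase gene Pygb at 54.2 ± 5.18 and the phosphoglucomutase gene Pgm2 at 51.6 ± 5.13 CPM per kb of transcript. By coding length, Pck2 came before Pgm2 (65.8 ± 6.53 CPM per kb), within their spread. All 14 regulators were detected. Txnip, which restrains glucose uptake, had 241 ± 7.65 CPM per kb, Bsg, the chaperone of the lactate carriers, had 179 ± 14.7, and Hif1a had 165 ± 3.33.

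Between the 3 libraries, 11 of the 31 genes with enough counts varied by more than counting noise (chi-square test against the library totals, Benjamini-Hochberg adjusted over 10043 genes, threshold 0.05), beside 22.7% of all genes tested. Abundant genes give this test more power, and nothing particular to the pathway is read from the count. Of the other lists, 3 of 9 further isoenzymes and transporters, 1 of 3 further pentose phosphate genes, 2 of 8 gluconeogenesis and glycogen genes, 5 of 13 regulators and 0 of 10 pyruvate entry genes passed the same chi-square test, with 1 of the last at an unadjusted p under 0.05. The count for the pathway was 7 of 30 without library 1, 8 of 31 without library 2 and 4 of 31 without library 3. No share over all genes is given for these settings, so nothing about the pathway is read from these counts. Of these 11 genes, 7 were lowest in library 3: Hk1 (adjusted p = 5.44e-19 by the chi-square test), Pfkp (5.24e-09), Slc2a3 (2.00e-07), Tkt (3.46e-07), Pgd (0.0188), Pfkfb3 (0.0263) and Slc16a3 (0.036). Hk1 in library 3 was at 0.73 of its CPM in library 1. By edgeR's quasi-likelihood test of each library against the other 2, which allows for the spread between libraries, Hk1 alone of the 31 tested differed, lower in library 3 with a log2 fold change of -0.51 (adjusted p = 0.00435), where 1.31% of all genes tested were called in any library. DESeq2 called none of the 34, beside 0.0132% of all genes. At an unadjusted p under 0.05 in any library, edgeR had 7 genes and DESeq2 had 2. For unadjusted p no share over all genes is given, and these tools tested each gene 3 times. Nothing is therefore read from the unadjusted counts.

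Coding length moved with this contrast. Over all genes with 300 or more summed counts, the median log2 ratio of CPM in library 3 over library 1 was 0.14 for coding sequences under 1000 bases, 0.01 from 1000 to 2000, -0.11 from 2000 to 3000 and -0.14 from 3000. Hk1, with 2835 coding bases, and Pfkp, with 2352, lay below the median of their class, while Pfkl, with 2340 coding bases, was at 1.09 of its level in library 1. The part of coding length in the differences of these genes was not tested.

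**Figure D4:**
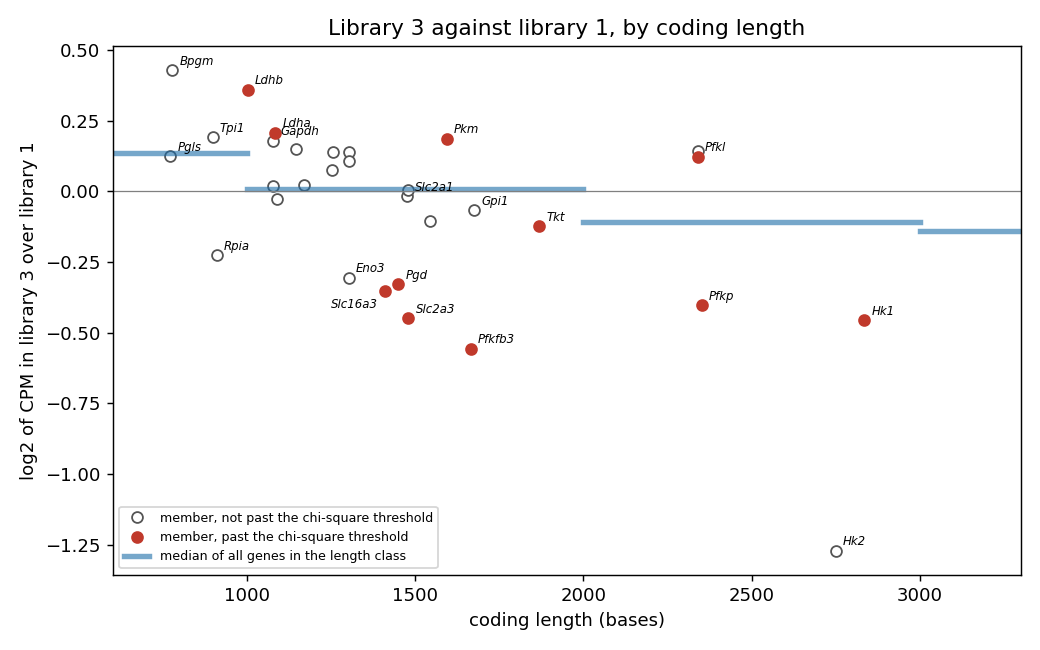
Log2 of CPM in library 3 over library 1 against coding length for the 31 genes with 30 or more summed counts; red points passed the chi-square test between libraries (Hk2, at the lowest ratio, did not), open points did not, and blue lines are the medians of all genes with 300 or more summed counts in 4 length classes. Hk1, Pfkp, Slc2a3 and Pfkfb3 lie below the lines, and Ldha, Ldhb and Pkm lie above.

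Pkm, Ldha, Taldo1 and Aldoa differed in another way. Their counts were nearly equal in the 3 libraries, with a coefficient of variation of 2.39%, 1.83%, 3.75% and 4.05%, while the library totals varied by 8.75%. Their CPM thus rose as the totals fell, to the highest level in library 3. Eno1 did the same, with a coefficient of variation of 4.11% at only 0.314 counts per coding base. Pkm (adjusted p = 0.00852) and Ldha (0.00834) passed the chi-square test in this way, and with TMM-scaled library sizes neither did (0.0847 and 0.0679). The other 9 genes passed under both scalings. With 1.29, 1.16 and 1.00 counts per coding base, Aldoa, Ldha and Pkm are among the denser genes of these tables, in which 143 genes with a mean of 500 or more counts and a coefficient of variation under 2% had a median of 1.61 and a highest value of 2.48 counts per coding base. Tkt, at 1.02 counts per coding base, had counts that varied by 15.6%. Over all 380 coding genes with 1 to 1.8 counts per coding base, the median coefficient of variation of the counts was 4.24%. It was 9.82% in 2888 genes from 0.2 to 1, and 1.44% in 93 genes at 1.8 or more. Near-equal counts were thus not particular to genes of the pathway. The cause of the near-equal counts was not tested. Their bearing on the levels and order of these genes, and on Aldoa over Aldoc and Ldha over Ldhb, was not tested either. The intervals of those ratios do not cover it.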

How the data were processed

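Per the labels, poly(A) RNA was taken from primary regulatory T cells and sheared by Covaris before sequencing, in 3 technical libraries of 1 biological replicate. The authors deposited whole-number counts per Ensembl gene for each library, and notes deposited with the tables name mm10 and GENCODE M4. The sources used here do not give the read length, the aligner, or the counting tool and how it treated strand, duplicates and reads with several matches.

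Counts were divided by the library total (CPM). Gene names, lengths, overlaps and 31-mers came from GENCODE M21 on GRCm38, and sequences from its transcripts; 22195 of 22457 IDs had a symbol and 21784 a coding length, taken from the transcript with the longest coding sequence. Levels between genes are given per coding kilobase unless transcript length is named, because in 143 genes with near-equal counts the log count went with log coding length (r = 0.40, across genes) more than with transcript length (r = 0.13). Those genes were picked by their counts, so this need not hold for genes of low counts. Isoenzyme ratios were computed on summed counts per transcript base as main value, with exact Clopper-Pearson 95% intervals, and per coding base beside it; intervals cover counting error only. Libraries were compared by a chi-square test of genes with 30 or more summed counts, which was tested on simulated data, and by edgeR 4.0.16 and DESeq2 1.42.0 (R 4.3.3). A count of 0 allows up to 3 counts. The 34 genes, the other gene and marker lists, the 14 pairs and the tests were chosen with earlier results of these data known; every gene of the 34 is named by rule and others are the 3 highest per transcript base in each list, those at 0 and those a result turns on. Alternatives were other library scalings, count and detection minimums, lengths and leaving out each library.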

Additional observations from a re-analysis of the deposited data

How the results depend on the processing

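Levels of all 34 genes kept their values within the spread between libraries under TMM scaling. A mean over 3 libraries always stays within their SD when 1 is left out, so that alternative could not test the levels. Pgam1, for example, went from 0.425 to 0.151 CPM without library 2. The number detected was 31 with TMM, 30 at 5 CPM and 31 to 32 without 1 library. The number differing between libraries was 9 of 31 with TMM (22% of all genes tested) and 9 of 31 with DESeq2 size factors (21.9%). With no minimum it was 10 of 34 (14%), and with a minimum of 100 counts 11 of 29 (25.3%). By edgeR's quasi-likelihood test the number was 1 (1.31% of all genes tested), and by DESeq2 it was 0 (0.0132%). Without 1 library it was 4 to 8, with no share over all genes given, so nothing is read from it. Ratios depended on the length they were divided by. Over the union of all exons, Slc2a1 over Slc2a3 was 0.450, Hk1 over Hk2 was 71.2 and over Hk3 215, Pfkl over Pfkm was 6.67, Pfkp over Pfkm 5.02, Aldoa over Aldoc 28.7, Eno1 over Eno3 2.51, Ldha over Ldhb 4.32, Pfkfb3 over Pfkfb4 11.7 and Pdha1 over Pdhb 2.23. The order of Pfkl over Pfkp (1.33) and Slc16a1 over Slc16a3 (1.04) turned there. Per coding base, 7 of 14 ratios moved: Slc2a1 over Slc2a3 to 0.218, Hk1 over Hk2 to 98.7, Pfkl over Pfkm to 13.3, Pfkp over Pfkm to 20.04, Aldoa over Aldoc to 22.2, Ldha over Ldhb to 8.43 and Pdha1 over Pdhb to 1.98. Over positions with 31-mers of no other gene, Aldoa over Aldoc was 70.6, Eno1 over Eno3 26.2, and Pdha1 over Pdhb turned to 0.831. Without 1 library, Slc16a1 over Slc16a3 ran from 0.747 to 1.02 and Bpgm over Pgam1 from 38.8 to 172. These shifts follow from the lengths and the libraries left out. No paired analysis was possible because the 3 libraries form 1 group. Depth limits Hk3, Pgam1 and Pfkfb4, each with under 30 summed counts.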
